A study of Mus musculus with 10 samples.

Results

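The 10 genes described here encode the main heat shock chaperones of the cytosol and the mitochondrial matrix, namely Hspa1a, Hspa1b, Hspa8, Hsp90aa1, Hsp90ab1, Hspb1, Dnajb1, Hsph1, Hspd1 and Hspe1. They were chosen by symbol, and all 10 were found among the 27179 Entrez gene IDs of the count table and passed the filter on low counts. Cochlear RNA of mice on postnatal day 8 was sequenced, with 5 libraries of the genotype Pknox2-/- (knockout 1 to 5) and 5 of the genotype Pknox2+/+ (wild type 1 to 5). Pknox2 encodes a homeodomain transcription factor. Tissue was kept in RNAlater before extraction, and no other allele, agent or treatment is named for either group. The samples are described as independent biological samples, but the sources used here give no strain, no extent of the deletion and no number of pups per library.

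Chaperones bind unfolded stretches of other proteins, and most of them work through cycles of ATP binding and hydrolysis. HSP70 proteins are handed clients by J-domain proteins and are reset by nucleotide exchange factors of the HSP110 type, while HSP90 proteins complete the folding of kinases and steroid receptors. In the mitochondrial matrix the chaperonin HSP60 and its lid HSP10 enclose imported proteins. Under heat or oxidative stress the factor HSF1 binds repeated GAA and TTC blocks in the promoters of many of these genes, the heat shock elements. In the inner ear the heat shock response is best known for protecting hair cells against noise and ototoxic drugs.

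RefSeq promoter windows of GRCm38.p6 were at hand for 7 of the 10 genes, and the stretches below show the heat shock element matches that these genes carry or share. The search covered the 250 bases before each start, on both strands, for GAANNTTC or TTCNNGAA, both of which read the same on either strand. Of the 7 genes 6 held at least 1 match, and over all 32851 promoter windows of that length 12.8% did. Hspd1, Hsph1 and Dnajb1 had more than 1 window, so the count per gene and the share per window differ in unit. The longer form GAANNTTCNNGAA, or its reverse complement TTCNNGAANNTTC, overlaps the shorter matches and was found for 2 genes, Hspd1 and Hspe1, and in 0.466% of all windows. Dnajb1 is the gene without a match in its windows. A match describes letters, not binding. Capitals mark the matched blocks, and each stretch runs 5′ to 3′ on the strand of the gene.
Hspa1a, chr17:34972216-34972286, minus strand: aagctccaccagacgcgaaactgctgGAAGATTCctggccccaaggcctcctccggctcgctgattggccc
Hspa1b, chr17:34959298-34959368, minus strand: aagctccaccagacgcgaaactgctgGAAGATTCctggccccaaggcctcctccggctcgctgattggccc
Hspb1, chr5:135887789-135887859, plus strand: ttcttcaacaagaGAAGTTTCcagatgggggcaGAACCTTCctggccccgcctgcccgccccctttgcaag
Hspe1, chr1:55088053-55088082, plus strand: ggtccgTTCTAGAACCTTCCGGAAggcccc
Hsph1, chr5:149636351-149636380, minus strand: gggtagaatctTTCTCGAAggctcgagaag

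The Hspa1a and Hspa1b stretches, from base -130 to base -60 before the start, were identical over all 71 bases, and over the full 250 bases the promoters differed at 3 positions. Hspb1 held 2 separate pairs of blocks in its stretch. The Hspe1 stretch holds 4 adjoining blocks in 18 bases, at 55088059 to 55088076 on chromosome 1. Hspd1 lies head to head with Hspe1 on the opposite strand, and the 18 bases are the same ones that precede the downstream of its 2 RefSeq starts, which lies 216 bases from the start of Hspe1. The upstream start of Hspd1 lies 95 bases inside Hspe1, so the genes overlap there and reads from the overlap cannot be assigned without strand.

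Sequence copies limit how far single genes can be read. The reading frames of Hspa1a and Hspa1b, 1926 and 1929 bases long, differed at 8 aligned bases, and 62.3% of the 50-base windows of the Hspa1b transcript also occurred in Hspa1a. Windows found in transcripts of other genes, mostly pseudogenes, made up 74.8% for Hspa8, 58.5% for Hsp90aa1, 51.6% for Hspb1, 44.8% for Hspd1 and 44.8% for Hspe1. They made up 4.49% for Hsp90ab1, 0.441% for Dnajb1 and none for Hsph1. The sources used here do not say how reads with several matches were counted, so levels of the first group are uncertain.

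Library totals ran from 16.6 M to 19.4 M counts, and the 10 genes took 0.266% to 0.373% of a library. Pknox2 itself, whose count covers the whole gene, was at 19.9 ± 1.96 CPM (counts scaled to a common library total, after TMM scaling) in wild type and 21.1 ± 4.38 CPM in knockout (SD, n = 5 each), so it does not check the labels, on which every direction below rests. Knockout 2, 3 and 5 stood apart from the other 7 libraries on the first principal component (56.6% of the variance). Their share of ribosomal protein transcripts was 5.11% to 6.58%, against 2.51% to 4.29% elsewhere. The sex makeup differed too, with 4 Y-linked genes summing to 209 CPM in knockout 1, 0 to 11.3 CPM in knockout 2 to 5 and 102 to 225 CPM in wild type. All 6 hair cell, 5 supporting cell and 5 strial markers had counts, as the tissue label implies. Summed markers of 3 other lists separated the groups. Schwann cell markers, 4 of 4 with a fold change below 0, summed to 13380 to 16937 CPM in wild type and 8269 to 11294 CPM in knockout. Otic fibrocyte markers, 3 of 4 below 0, summed to 2829 to 3429 and 2306 to 2647 CPM, and bone markers, 6 of 6 above 0, to 15093 to 17736 and 18996 to 25111 CPM. No single marker was called by edgeR, none was at 0 counts in every library, and the part of these lists in the chaperone values was not tested.

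None of the 10 chaperone genes differed between the groups past the threshold, an adjusted p under 0.05 in edgeR's quasi-likelihood test over 16018 genes. Across all tested genes 3 were called, or 0.0187%, with 0.00624% higher and 0.0125% lower in knockout. At an unadjusted p under 0.05, 2 of the 10 were higher in knockout, Hspb1 and Hspd1, and none was lower, beside 20.1% of all tested genes in either direction and 11.4% higher and 8.66% lower. DESeq2 called none of the 10, while it called 2.11% of the genes with an adjusted p. The median log2 fold change of the 10 was 0.10 with 6 above 0, beside -0.01 over all tested genes, and it was -0.02 without knockout 2, 3 and 5. Those 3 were picked after the data were seen and are all knockouts. Leaving them out, or fitting the first principal component, can also remove a genotype difference. Y-linked expression, low in knockout 2 to 5, shares this limit as a covariate. A smaller value in these settings therefore cannot tell library from genotype. For none of the 10 were the groups free of overlap, beside 1.15% of all genes with every knockout library higher and 1.22% with every one lower. In RNA from whole tissue, fewer cells of a type and less RNA per cell cannot be told apart.

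**Figure D1:**
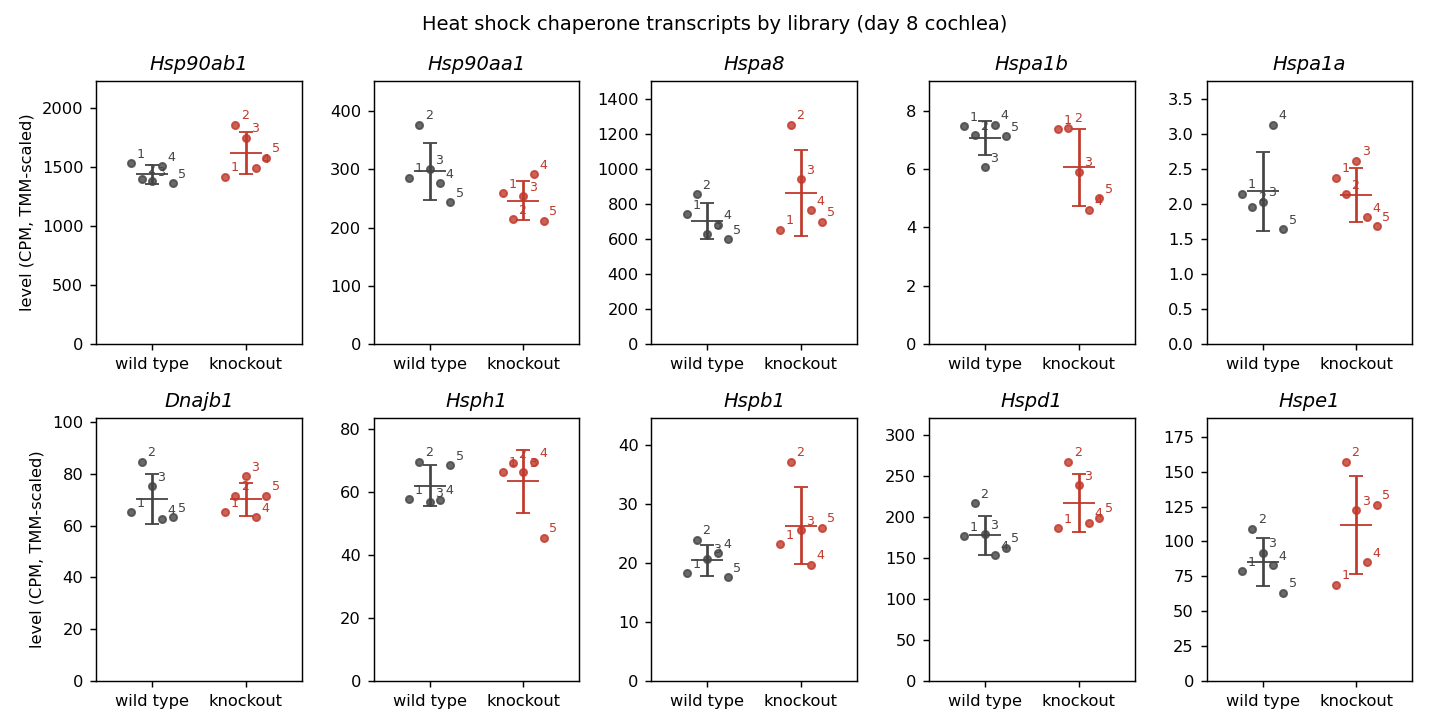
Level of each chaperone transcript in CPM after TMM scaling (vertical axis, from 0) for wild type and knockout; points are libraries numbered by replicate, and the bar with whiskers is the mean ± SD (n = 5 each). Knockout 2 is the highest knockout library for 6 of the 10 genes and wild type 2 the highest wild-type library for 7, and the groups overlap in every panel.

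Hsp90ab1 and Hsp90aa1, the constitutive and the more stress-inducible form of cytosolic HSP90, had fold changes of opposite sign. Hsp90ab1 (Entrez 15516, chromosome 17, 45567778 to 45573261, GRCm38) was at 1537, 1402, 1384, 1512 and 1365 CPM in wild type 1 to 5. In knockout 1 to 5 it was at 1420.3, 1860.1, 1749.8, 1493 and 1583.5 CPM. Knockout 2, 3 and 5 lay above all wild-type libraries, and the other 2 lay inside their range. The log2 fold change was 0.17 (SE 0.109, 95% interval -0.07 to 0.41, adjusted p = 0.340 by edgeR's quasi-likelihood test). It was 0.018 without knockout 2, 3 and 5, 0.025 once the first principal component was a covariate and 0.037 once Y-linked expression was one.

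Hsp90aa1 (Entrez 15519, chromosome 12, 110691036 to 110696395) was at 286, 376, 299.7, 276 and 244 CPM in wild type 1 to 5 and at 259, 215, 254, 291 and 212 CPM in knockout 1 to 5. It was the member with all 5 knockout libraries below the wild-type mean, and knockout 2 and 5 were under the wild-type minimum. Its log2 fold change was -0.27 (SE 0.132, interval -0.56 to 0.02, adjusted p = 0.265, edgeR) and -0.10 without knockout 2, 3 and 5. Sums of spiral ganglion neuron, Schwann cell and otic fibrocyte markers also ran lower in knockout, and those of the neurons overlapped between the groups. The 5 neuron markers Nefl, Nefm, Tubb3, Snap25 and Prph, 4 of them with a fold change below 0 and none at 0 counts, summed to 1312 to 2094 CPM in wild type and 677 to 1598 CPM in knockout. Among wild types, wild type 4 and 5 had the highest neuron sums (2094 and 1855 CPM) and the lowest Hsp90aa1. Among knockouts, knockout 4 was highest in both. The part of these markers in the Hsp90aa1 values was not tested.

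Among the HSP70 genes, the constitutive Hspa8 was abundant and the inducible pair was at low levels. Hspa8 (Entrez 15481, chromosome 9, 40801276 to 40805202) encodes HSC70, which also strips clathrin coats from vesicles. It was at 741, 856, 629, 683 and 598 CPM in wild type 1 to 5 and at 655, 1252, 943, 766 and 699 CPM in knockout 1 to 5. Knockout 2 stood highest and knockout 3 next, both above all wild-type libraries, and the other 3 lay within the wild-type range. The difference came to a log2 fold change of 0.30 (SE 0.180, interval -0.09 to 0.69, adjusted p = 0.318, edgeR). It was 0.02 without knockout 2, 3 and 5 and -0.05 once the first principal component was a covariate.

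Hspa1b (Entrez 15511, chromosome 17, 34956429 to 34959238) and Hspa1a (Entrez 193740, chromosome 17, 34969359 to 34972156) encode the HSP70 that heat induces. Hspa1b was at 7.46, 7.16, 6.06, 7.51 and 7.12 CPM in wild type 1 to 5 and at 7.36, 7.41, 5.91, 4.59 and 5.00 CPM in knockout 1 to 5. Knockout 3, 4 and 5 were under the wild-type minimum, and knockout 1 and 2 lay among the wild types. As a log2 fold change this was -0.22 (SE 0.168, interval -0.59 to 0.14, adjusted p = 0.409, edgeR), and it was -0.24 without knockout 2, 3 and 5. The knockouts left in that setting were knockout 1, among the wild types, and knockout 4, the lowest library with 81 counts. Once Y-linked expression was a covariate the log2 fold change came to -0.076, and with 1 library left out it ran from -0.14 without knockout 4 to -0.30 without knockout 2. Hspa1a had 1.64 to 3.13 CPM across wild types and 1.69 to 2.62 CPM across knockouts, from 28 to 55 counts per library, with a log2 fold change of -0.04 (interval -0.52 to 0.45, adjusted p = 0.928, edgeR).

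The partners of HSP70 had fold changes near 0. Dnajb1 (Entrez 81489, chromosome 8, 83608175 to 83612653) encodes HSP40, the J-domain protein that delivers clients to HSP70. It was at 65.3, 84.8, 75.2, 62.6 and 63.4 CPM in wild type 1 to 5 and at 65.2, 71.6, 79.2, 63.2 and 71.6 CPM in knockout 1 to 5. The knockout range lay inside the wild-type range, and the interval of the log2 fold change ran from -0.24 to 0.23 (adjusted p = 0.993, edgeR). Without knockout 2, 3 and 5 the log2 fold change was -0.13.

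Hsph1 (Entrez 15505, chromosome 5, 149616843 to 149636498), which encodes the nucleotide exchange factor HSP110, was at 57.8, 69.7, 56.7, 57.6 and 68.6 CPM in wild type 1 to 5. In knockout 1 to 5 it was at 66.4, 69.2, 66.3, 69.5 and 45.5 CPM. Knockout 5 was the lowest of all 10 libraries, while the other 4 knockout libraries lay within 66.3 to 69.5 CPM. Knockout minus wild type, the log2 fold change was 0.03 (SE 0.127, interval -0.25 to 0.31, adjusted p = 0.892, edgeR), and 0.13 without knockout 5.

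Hspb1 (Entrez 15507, chromosome 5, 135887919 to 135889563) encodes the small heat shock protein HSP25, an ATP-independent holdase that also binds actin filaments. It was at 18.3, 24.0, 20.7, 21.6 and 17.6 CPM in wild type 1 to 5 and at 23.1, 37.2, 25.6, 19.7 and 26.0 CPM in knockout 1 to 5. Knockout 2 was far above the rest, knockout 3 and 5 were slightly above the highest wild type, and knockout 4 was below the wild-type mean. On the log2 scale the fold change was 0.37 (SE 0.164, interval 0.01 to 0.72, unadjusted p = 0.0459 and adjusted p = 0.244, edgeR). It was 0.07 without knockout 2, 3 and 5 and 0.03 once the first principal component was a covariate. Skeletal muscle is rich in small heat shock proteins. Its 8 markers, none of them at 0 in every library, reached sums of 7.58 to 11.3 CPM in wild type and 7.77 to 12.6 CPM in knockout. The part of muscle in the Hspb1 values was not tested.

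Hspd1 and Hspe1 encode the mitochondrial chaperonin HSP60 and its co-chaperonin HSP10, and both had means above wild type in knockout. Hspd1 (Entrez 15510, chromosome 1, 55077833 to 55088243) was at 176, 216, 179, 153 and 163 CPM in wild type 1 to 5 and at 186, 267, 239, 193 and 199 CPM in knockout 1 to 5. All 5 knockout libraries lay above the wild-type mean, and knockout 2 and 3 lay above every wild type. Its fitted log2 fold change was 0.29 (SE 0.129, interval 0.01 to 0.57, unadjusted p = 0.0450 and adjusted p = 0.244, edgeR), and it was 0.10 without knockout 2, 3 and 5.

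Hspe1 (Entrez 15528, chromosome 1, 55088148 to 55091317) was at 78.8, 109, 91.7, 83.1 and 63.1 CPM in wild type 1 to 5 and at 68.9, 157, 122, 84.9 and 126 CPM in knockout 1 to 5. Knockout 2, 3 and 5 lay above all wild types, while knockout 1 and 4 lay within their range. The fitted log2 fold change was 0.39 (SE 0.212, interval -0.07 to 0.85, adjusted p = 0.284, edgeR). It turned to -0.15 without knockout 2, 3 and 5 and to -0.17 with either the first principal component or Y-linked expression in the model. The within-group SD of Hspe1, 0.40 on the log2 scale, was at the 74.8th percentile of all tested genes, and that of Hsp90ab1, 0.13, was at the 9.89th.

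**Figure D2:**
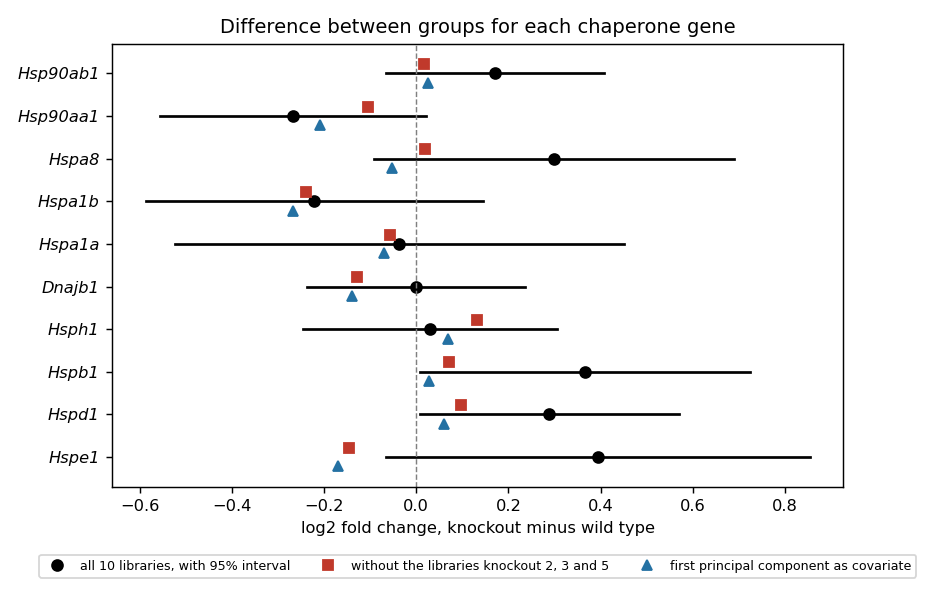
Log2 fold change of each gene, knockout minus wild type (horizontal axis); black points with lines are the edgeR estimates from all 10 libraries with 95% intervals, squares the estimates without knockout 2, 3 and 5, and triangles those once the first principal component was a covariate. Hspe1 moves from 0.39 to -0.15 and -0.17, while Hspa1b is between -0.22 and -0.27 in these 3 estimates. Squares rest on knockout 1 and 4, which for Hspa1b were at 7.36 and 4.59 CPM. Squares and triangles come from settings chosen after the data were seen, which can also remove a genotype difference.

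Several of the genes were high in the same libraries. Hspa8, Hsp90ab1, Hspb1, Hspd1 and Hspe1 were each highest in knockout 2 among the knockout libraries, the library with the largest share of ribosomal protein transcripts. Among wild types, wild type 2, with the largest ribosomal share of that group at 4.29%, was the highest library for 7 of the 10 genes, and wild type 5, with the smallest share at 2.51%, was the lowest for 6. Hspe1, whose transcript of 774 bases is the shortest of the 10, put all 10 libraries in the order of their ribosomal share, from wild type 5 to knockout 2, with knockout 3 and 5 exchanged. Hsp90aa1 followed that order over the 7 libraries other than knockout 2, 3 and 5, with wild type 1 and 4 exchanged. In knockout 2, 3 and 5 it was at 212 to 254 CPM, although their shares were the largest. The part of the ribosomal share in these levels was not tested.

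**Figure D3:**
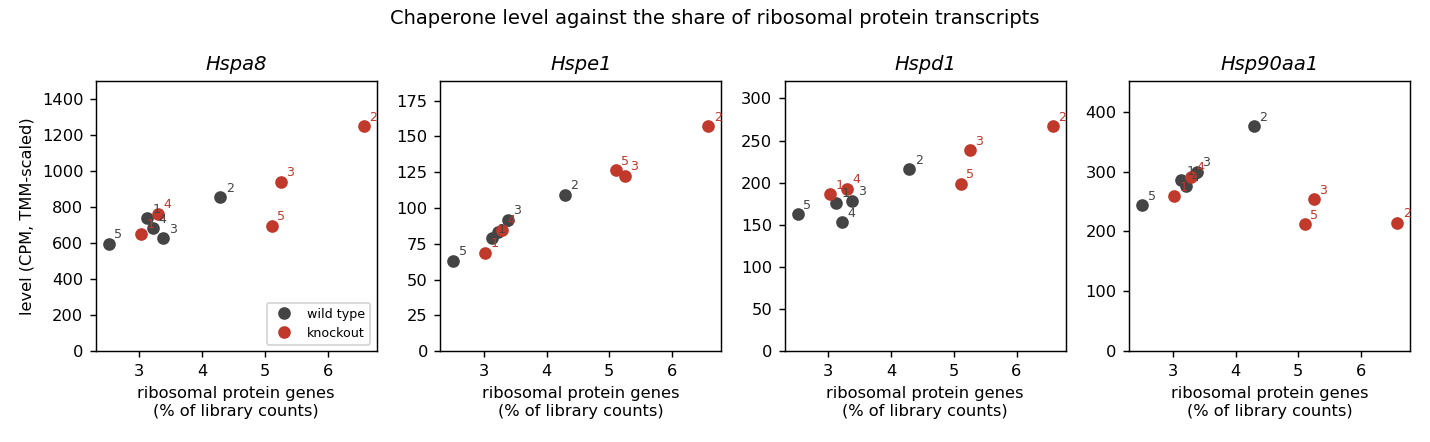
Level in CPM after TMM scaling (vertical axis, from 0) against the share of library counts taken by ribosomal protein genes in percent (horizontal axis); points are libraries numbered by replicate, dark for wild type and red for knockout. Hspa8, Hspe1 and Hspd1 are highest in knockout 2, which has a share of 6.58%, and Hsp90aa1 is highest in wild type 2.

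Scaled to transcript length, the levels spanned from Hsp90ab1 at 572 ± 31.2 CPM per kilobase to Hspa1a at 0.736 ± 0.189 CPM per kilobase in wild type (SD, n = 5). Hspa8 followed Hsp90ab1 at 293 ± 42.6, and the 5 wild-type libraries of the 2 genes did not overlap. Sequence copies limit this order, as 74.8% of the Hspa8 windows and 4.49% of the Hsp90ab1 windows occurred in other genes. Hspe1 (110.0 ± 21.9 CPM per kilobase), Hsp90aa1 (90.3 ± 14.95) and Hspd1 (73.2 ± 9.93) formed the next group, in which each neighbour overlapped the next. Dnajb1 (23.4 ± 3.20 CPM per kilobase) and Hspb1 (21.97 ± 2.78) overlapped too, whereas Hsph1 (16.3 ± 1.71) lay below both. Hspa1b was at 2.52 ± 0.210 CPM per kilobase. In knockout the order was the same except within the overlapping groups, where Hspd1 came before Hsp90aa1 and Hspb1 before Dnajb1.

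**Figure D4:**
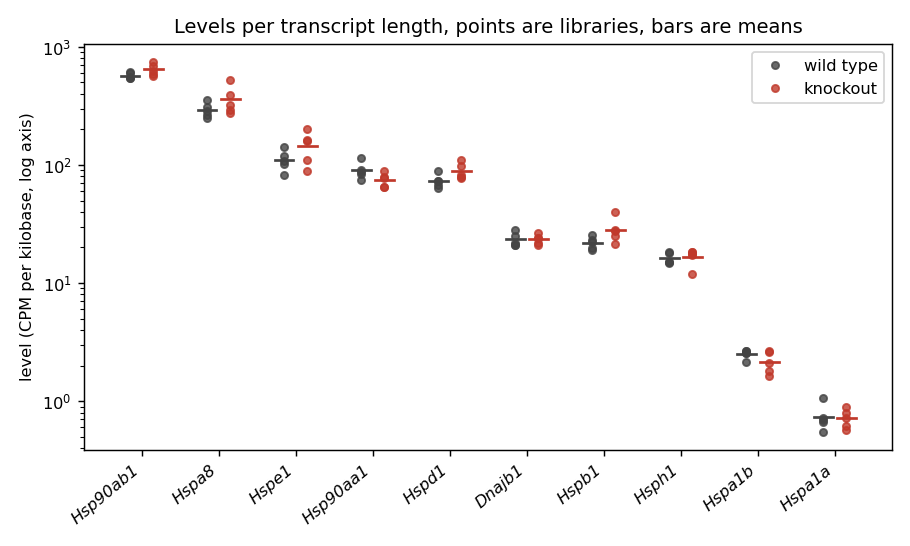
Level in CPM per kilobase of the longest coding transcript (vertical log axis) for the 10 genes in wild-type order; points are libraries and short bars are group means (n = 5 each). The constitutive Hsp90ab1 and Hspa8 lie at the top, with means of 572 and 293 in wild type, and the inducible Hspa1b and Hspa1a lie at the bottom, with 2.52 and 0.736. Levels of genes with sequence copies, Hspa8 among them, are uncertain.

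Ratios of counts within a library do not depend on library scaling, and 4 pairs were compared by exact two-sided permutation tests, whose smallest possible p is 0.00794 here. None passed after adjustment over the 4 ratios. The ratio of the inducible Hspa1b to the constitutive Hspa8 was 0.0101, 0.00836, 0.00963, 0.0110 and 0.0119 in wild type 1 to 5 and 0.0112, 0.00592, 0.00627, 0.00600 and 0.00715 in knockout 1 to 5. Knockout 2 to 5 all lay below the lowest wild type, and knockout 1 lay among them. The difference of the mean log2 ratio was -0.51 (exact permutation p = 0.0397, adjusted p = 0.143). Without knockout 1, the knockout library inside the wild-type range, the difference was -0.68. The groups then no longer overlap, which fixes p at the smallest it can reach (exact permutation p = 0.00794, adjusted p = 0.0317). With any other library left out, the adjusted p by exact permutation was 0.0952 to 0.238. Knockout 1 is also the knockout library with Y-linked transcripts at the wild-type level, so without it genotype and sex makeup cannot be told apart. The part of sex in the ratio was not tested.

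The ratio of Hsp90aa1 to Hsp90ab1 was 0.186, 0.268, 0.217, 0.182 and 0.179 in wild type 1 to 5 and 0.182, 0.115, 0.145, 0.195 and 0.134 in knockout 1 to 5. Knockout 2, 3 and 5 lay below every wild type, and knockout 1 and 4 lay within their range. The difference was -0.43 on the log2 scale (exact permutation p = 0.0714, adjusted p = 0.143). Hspd1 to Hspe1, the pair with a common element, had a mean ratio of 2.12 ± 0.294 in wild type and 2.04 ± 0.457 in knockout (SD, n = 5 each; exact permutation p = 0.683, adjusted p = 0.683). Hspa1a to Hspa1b had 0.309 ± 0.0711 and 0.358 ± 0.0613 (exact permutation p = 0.238, adjusted p = 0.317), and reads shared by these near-identical genes limit that ratio.

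**Figure D5:**
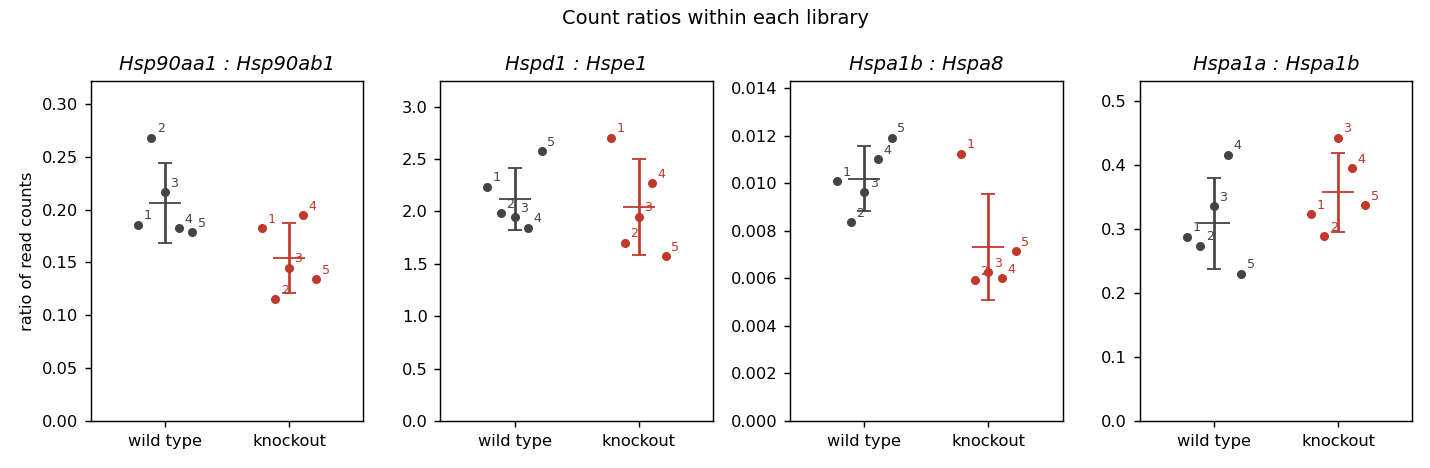
Ratio of read counts within each library (vertical axes, from 0) for 4 gene pairs; points are libraries numbered by replicate, and the bar with whiskers is the mean ± SD (n = 5 each). For Hspa1b to Hspa8, knockout 2 to 5 lie between 0.00592 and 0.00715 and wild types between 0.00836 and 0.0119.

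On the lists drawn up around these 10, edgeR called no gene with all 10 libraries. DESeq2 called 7 of them, beside 2.11% of all genes with an adjusted p. They were 1 of 9 HSP110 and further HSP70 genes, 4 of 15 endoplasmic reticulum genes and 2 of 13 immediate early genes. Of those 7, edgeR called 3 without knockout 1, when 1.03% of all tested genes were called. As for the ratio above, genotype and sex makeup cannot be told apart without that library. Of the heat shock factors and their regulators, 6 of 7 listed were tested, 5 with a fold change above 0 and a median of 0.16, and without knockout 2, 3 and 5 the median was 0.0060 with 3 above 0. Hsbp1, which encodes a small protein that binds HSF1 trimers, was at 153 ± 17.99 CPM in wild type and 186 ± 36.8 CPM in knockout (log2 fold change 0.29, adjusted p = 0.258, edgeR, and -0.02 without those 3 libraries), and Hsf2 at 20.4 ± 1.16 and 22.5 ± 2.63 CPM (adjusted p = 0.408, edgeR). Hsf1, named here for its role, was at 34.1 ± 2.03 and 34.8 ± 1.86 CPM, and its target and HSP70 co-chaperone Bag3 at 72.4 ± 9.24 and 71.1 ± 3.59 CPM (SD, n = 5 each).

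Some HSP70 relatives and J-domain genes had lower means in knockout, none of them past the threshold by edgeR with all 10 libraries. Of 9 HSP110 and further HSP70 genes 6 had a fold change below 0 (median -0.05), and 2 had an unadjusted p under 0.05, both lower, beside 8.66% of all genes. Hspa4l, an HSP110 relative, went from 48.7 ± 3.55 to 34.0 ± 7.21 CPM (log2 fold change -0.52, adjusted p = 0.210, edgeR). It passed with DESeq2 (-0.51, adjusted p = 0.0410) and by edgeR without knockout 1 (-0.63, adjusted p = 0.0428), and was -0.23 without knockout 2, 3 and 5. Hspa12a went from 193 ± 37.9 to 126.8 ± 48.9 CPM (-0.60, and -0.11 without knockout 2, 3 and 5). Of 12 J-domain genes 7 were above 0 (median 0.01), and 3 had an unadjusted p under 0.05, all lower. Dnaja4 went from 43.9 ± 4.09 to 34.6 ± 2.87 CPM (-0.34, adjusted p = 0.210, edgeR). Dnajb4 had all 5 knockout libraries, at 41.8 to 49.1 CPM, below all wild types, at 49.9 to 60.0 CPM (-0.26, adjusted p = 0.217, edgeR). Such a gap held for 1 of the 12 J-domain genes, beside 1.22% of all genes. Without knockout 2, 3 and 5 no gene of either list had an unadjusted p under 0.05. With knockout 1 and 4 as the only knockout libraries, 662 of all 16463 tested genes did.

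The folding machines that work with HSP70 and HSP90 mostly had fold changes above 0, again with none past the threshold by edgeR or DESeq2. Of 19 co-chaperone genes 16 had a fold change above 0, with a median of 0.17, and 4 had an unadjusted p under 0.05, all higher, beside 11.4% of all genes. Sgta, a co-chaperone of tail-anchored proteins, was at 126 ± 13.4 and 163 ± 30.5 CPM (adjusted p = 0.222, edgeR), and Cdc37, which brings kinases to HSP90, at 199 ± 31.7 and 274 ± 79.2 CPM (adjusted p = 0.234, edgeR). Of the 8 subunits of the cytosolic chaperonin CCT, 7 were above 0 with a median of 0.32. Cct7 was at 198 ± 34.4 CPM in wild type and 349 ± 160 CPM in knockout (adjusted p = 0.214, edgeR), and Cct4 at 140.4 ± 23.5 and 182 ± 37.1 CPM. Without knockout 2, 3 and 5 the medians were -0.03 for the co-chaperones, with 8 of 19 above 0, and 0.03 for CCT, with 5 of 8 above 0. No gene of either list then had an unadjusted p under 0.05, beside 662 of all 16463 tested genes.

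Among further mitochondrial chaperones and proteases, 8 of 11 were above 0 with a median of 0.14, and -0.03 without knockout 2, 3 and 5. Dnajc19 of the import motor was at 23.6 ± 3.75 and 32.2 ± 6.83 CPM (adjusted p = 0.222, edgeR), and the protease subunit gene Clpp at 39.5 ± 5.50 and 57.0 ± 20.5 CPM (adjusted p = 0.236, edgeR). Of 8 genes listed under small heat shock proteins 6 were tested, 4 above 0 with a median of 0.21, and -0.10 without those 3 libraries. The list does not show that each encodes a chaperone. Hspb11 was at 7.71 ± 0.693 and 10.5 ± 2.72 CPM and Hspb7 at 11.1 ± 1.46 and 14.8 ± 3.69 CPM.

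Endoplasmic reticulum folding and stress genes and immediate early genes were compared as the nearest stress-related groups. Both had medians above 0 with and without knockout 2, 3 and 5, and edgeR called none of their genes with all 10 libraries. The 15 reticulum genes, which include the transcription factor genes Ddit3, Xbp1 and Atf4, had a median of 0.31 with 13 above 0. Without knockout 2, 3 and 5 their median was 0.20 with 14 above 0. Pdia3, a disulfide isomerase, was at 621 ± 72.4 and 920 ± 187 CPM, and Pdia6 at 237 ± 29.2 and 337 ± 63.3 CPM (adjusted p = 0.210 for each, edgeR). Their log2 fold changes of 0.57 and 0.51 were 0.26 and 0.27 without knockout 2, 3 and 5. DESeq2 called Pdia3 (adjusted p = 0.0211), Pdia6 (adjusted p = 0.0370) and also Hspa5 (adjusted p = 0.0425) and Calr (adjusted p = 0.0447), all higher in knockout. It called 2.11% of all genes with an adjusted p. Without knockout 1 edgeR called Pdia3 (adjusted p = 0.0496) and 1.03% of all tested genes. Genotype and sex makeup cannot be told apart in that setting. The 13 immediate early genes had a median of 0.42 with 9 above 0, and without knockout 2, 3 and 5 of 0.32 with 11 above 0. In that setting 6 of these 13 and 4 of the 15 reticulum genes had an unadjusted p under 0.05 by edgeR, all higher. Of all 16463 genes tested there, 662 had such a p in either direction. Fosb and Egr1, with the smallest p among the 13 there, had log2 fold changes of 1.68 and 0.66. Ier2 was at 45.6 to 69.9 CPM in wild type and 73.4 to 136 CPM in knockout, with no overlap, as for 1.15% of all genes (log2 fold change 0.78, adjusted p = 0.205, edgeR). It was 0.32 without knockout 2, 3 and 5, 0.33 once the first principal component was a covariate and 0.40 once Y-linked expression was one. Junb was at 33.9 ± 4.56 and 45.4 ± 5.71 CPM. DESeq2 called Ier2 (adjusted p = 0.0146) and Junb (adjusted p = 0.0431), both higher, and edgeR called Ier2 without knockout 1 (adjusted p = 0.0480). The difference between these medians and that of the 10 chaperones was not tested.

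Likeness of pattern was measured as Pearson's r of log2 CPM over the 10 libraries after the group means were subtracted, as a description. The 6 named genes nearest to Hspd1 were Impdh2-ps, Nme7, G3bp1, Hnrnpc, Lsm8 and Chtf8, with r from 0.98 to 0.94, and 60 tested genes exceeded 0.9. Nearest to Hspa1b were Slc7a10, Igfbpl1, Adcy8, Pcyox1l, Btbd17 and Timp4, with r from 0.91 to 0.86, and 4 tested genes exceeded 0.9. Most of these last genes were at 1.18 to 5.71 CPM in wild type, where counting error is large, and Pcyox1l was at 17.6 CPM.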

How the data were processed

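The deposited table holds raw read counts per Entrez gene, which the authors made with HISAT2 and featureCounts among the named tools (limma is also named) on mm10, per the submitters' processing notes, without versions or roles. The sources used here state no annotation, strand setting or handling of reads with several matches. Symbols came from RefSeq (25275 IDs) and GENCODE M21 (18), leaving 1886 unnamed. The samples that form a group are taken as biological replicates.

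All counts were fitted with edgeR 4.0.16 (R 4.3.3, quasi-likelihood F-test, TMM, filterByExpr with a minimum count of 10 and total of 15, Benjamini-Hochberg over 16018 genes), group as the only term. Standard errors are the log2 fold change over the square root of F. Simulated counts, of which 15890 genes were tested, held changes in a small random subset. Of these changes, 22.4% at 1.5-fold, 76.1% at 2-fold and 98.5% at 4-fold were recovered. Each gene was drawn independently, without the shared library differences or sex makeup of the real data. The rates therefore describe the simulation and not the power of the real comparison. Ratios had 0.5 added to each count. Alternatives were RLE and upper-quartile scaling, no filter, DESeq2 1.42.0, limma-voom 3.58.1, a replicate block, Y-linked expression, each library left out and, chosen after seeing the data, 3 libraries left out and the first principal component. The members and lists were chosen with earlier results of these data known. By rule, all 10 members are named and, from each other list, called genes or the 2 with the smallest p. Hsf1 and Bag3 were added for their role, and Hspa5 and Calr, after their values were seen, as genes called by DESeq2. Fosb and Egr1 were also added after their values were seen, for their p without the 3 libraries. Library totals set the precision: counting error is small beside the spread between libraries except for Hspa1a and Hspa1b.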

Additional observations from a re-analysis of the deposited data

Results flagged for a closer look

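Over 28 groups of 5 values, 3 held a library far from the other 4 by Dixon's criterion, which chance alone meets in about 1 of 20 groups. Hsph1 was at 45.5 CPM in knockout 5 and at 66.3 to 69.5 CPM in the other knockout libraries. Hspa1b had 6.06 CPM in wild type 3, under the 7.12 to 7.51 CPM of its group. The ratio of Hspa1b to Hspa8 was 0.0112 in knockout 1 and 0.00592 to 0.00715 in the other knockout libraries.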

How the results depend on the processing

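None of the 10 chaperone genes was called under any of the 19 alternatives. The count over all genes, 3, was 331 with DESeq2, 1 with the replicate block, 0 with Y-linked expression as a covariate (332 genes at an unadjusted p under 0.05), 1 without knockout 2, 3 and 5, 1 with the first principal component, and 1 to 166 with 1 library removed, 166 without knockout 1. Same-numbered libraries correlated at -0.38 to 0.51 in their deviations, and 3 of 10 were nearest to their own number. That gives no clear pairing by replicate number, but 5 pairs cannot exclude it. With the block 3969 genes had an unadjusted p under 0.05 by edgeR, against 3215 in the main fit. The block changed no call among the 10. The median of the 10 was -0.061 with the first principal component and 0.057 to 0.16 with 1 library removed. Hsp90aa1, Hsp90ab1, Hspa1b, Hspb1 and Hspd1 kept their sign in all 19. Dnajb1 turned to 0.0078 with RLE scaling, 0.014 with upper-quartile scaling, 0.0077 with DESeq2, 0.0034 with limma-voom and 0.0041 with the block. With Y-linked expression Hspa1a turned to 0.22, Hspa8 to -0.011 and Hspe1 to -0.17. Hspe1 was -0.15 without knockout 2, 3 and 5. With the first principal component Hspa8 was -0.052 and Hspe1 -0.17. With single libraries left out Dnajb1 ran from -0.049 to 0.075, Hspa1a from -0.12 to 0.13, Hsph1 from -0.011 to 0.13, the log2 ratio of Hspd1 to Hspe1 from -0.18 to 0.015 and that of Hspa1b to Hspa8 from -0.68 to -0.45, with an adjusted p of 0.0317 to 0.238 by exact permutation. The causes were not tested. Depth limits Hspa1a, at 28 to 55 counts.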
